A study of Mus musculus with 12 samples.

Results

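The 9 genes described here are forkhead genes that facial mesenchyme is known to use, together with the noncoding partner of one of them: Foxf1, Foxf2, Foxc1, Foxc2, Foxd1, Foxl2, Foxl2os, Foxp1 and Foxp2. They were taken by name, from a list drawn up with earlier results of these data known. Every probe set that the platform annotation assigns to them was used. This gave 25 of the 45037 probe sets that are not array controls, and 9 of the 18193 genes that have a probe set of their own. The 12 mouse arrays (Affymetrix Mouse430 2.0) measured nasal and maxillary prominences at E10.5, an age in embryonic days when the face is still made of separate prominences, with 3 independent pools of tissue in each of 4 groups. NeoNull embryos, labelled aflox/null, carried a hypomorphic Neo allele of Tfap2a (the gene for AP-2α), which keeps an inserted neomycin cassette and has lowered activity, over a null allele, and develop a bilateral cleft of the lip and primary palate. Control embryos, labelled aflox/wt and called Neo/Wt in the study, carried the same Neo allele over a wild-type allele, so that every group held the Neo allele. The embryos were outbred and pooled, and some NeoNull embryos of this cross have an open neural tube. Whether such embryos entered the pools is not given in the sources used here.

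Forkhead proteins bind DNA through a winged-helix domain and act as transcription factors that open, activate or repress their targets. In the head, several of them are made in the mesenchyme that neural crest cells give rise to. Foxf1 and Foxf2 are known there as targets of Hedgehog signals from the epithelium. Foxc1 and Foxc2 act in mesenchyme around the eye, in the skull base and in vessel walls, Foxd1 marks stromal mesenchyme, Foxl2 is known for the eyelids and the ovary, and Foxp1 and Foxp2 are repressors that bind DNA in pairs.

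Foxl2 and Foxl2os begin a short way apart on opposite strands and run away from each other. They had the highest Pearson's r over the 12 pools of any pair of the 9 genes (0.99), and 0.08 for deviations from group means. Among all genes ranked by r, Foxl2os was at 11 for Foxl2 and Foxl2 at 19 for Foxl2os. The stretch between their starts is shown for that reason. Foxf2 and Foxc1 are immediate neighbours on chromosome 13 and had opposite patterns, and the 250 bases before each start are shown beside each other. All are RefSeq sequences of the build GRCm38.p6, written 5′ to 3′ on the plus strand, from chr9:98955311-98955606, chr13:31625566-31625815 and chr13:31806396-31806645, and capitals mark matches to GCCNNNGGC, a core sequence that AP-2 proteins bind.
Foxl2os to Foxl2: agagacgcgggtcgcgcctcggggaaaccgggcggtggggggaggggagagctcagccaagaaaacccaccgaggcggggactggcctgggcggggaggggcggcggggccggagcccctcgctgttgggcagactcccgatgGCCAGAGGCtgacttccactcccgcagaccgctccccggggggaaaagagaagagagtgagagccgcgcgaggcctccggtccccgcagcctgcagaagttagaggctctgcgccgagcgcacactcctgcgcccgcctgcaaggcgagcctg
Foxf2: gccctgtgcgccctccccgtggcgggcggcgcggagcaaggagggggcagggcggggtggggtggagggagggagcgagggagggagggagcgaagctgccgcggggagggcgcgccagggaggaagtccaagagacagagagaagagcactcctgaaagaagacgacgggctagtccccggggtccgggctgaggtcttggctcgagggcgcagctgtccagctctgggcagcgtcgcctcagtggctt
Foxc1: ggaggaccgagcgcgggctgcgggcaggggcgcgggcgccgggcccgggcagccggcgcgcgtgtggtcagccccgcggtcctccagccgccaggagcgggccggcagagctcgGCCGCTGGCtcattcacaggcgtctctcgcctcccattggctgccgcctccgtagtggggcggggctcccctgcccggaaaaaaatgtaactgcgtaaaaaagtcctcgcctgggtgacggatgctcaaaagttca
The first stretch, of 296 bases, held 1 match, which lies in the 250 bases before either start, Foxf2 held 0 and Foxc1 held 1. Foxd1 and Foxp1 held 0, where 13.7% of 32851 mouse promoter windows of 250 bases held at least 1. GCCNNNGGC reads the same on both strands. The forkhead core TGTTTAC (3.17% of windows) and the GLI core GACCACCCA (0.225%), each searched on both strands, did not occur in the window of any of the 6 genes with an entry in the table, which were Foxf2, Foxc1, Foxd1, Foxl2, Foxl2os and Foxp1. A match is a description of the letters and not a site shown to be bound, and a window without one says nothing about the factor.

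Values are log2 signals, as deposited by the authors, on which a difference of 1 is a doubling, and a level of one probe set cannot be set against that of another. The authors scored each probe set in each group as present, absent or variable. 21 of the 25 probe sets were scored present in all 4 groups. The other 4 belonged to Foxf1, Foxf2, Foxl2 and Foxp1, each of which has at least 1 further probe set scored present throughout, so every gene could be tested. Each gene is given below by its brightest probe set scored present in all 4 groups. Tests are limma's, fitted to all 12 arrays, with p-values adjusted by Benjamini-Hochberg over all probe sets tested in a contrast and called at 0.05. The exact permutation test of 3 pools against 3 cannot give a two-sided p under 0.1, and that was its value for each of the 8 genes called between prominences.

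The main division among the 9 genes was between prominences. In control embryos Foxf1, Foxc1, Foxc2 and Foxd1 were higher in nasal tissue, Foxf2, Foxl2, Foxl2os and Foxp2 were higher in maxillary tissue, and Foxp1 gave no call. Thus 8 of the 9 genes were called, 4 in each direction, where 8.4% of the 23025 probe sets tested were called, 4.12% higher and 4.28% lower in nasal tissue. In the same 8 genes no nasal pool overlapped a maxillary pool, against 26.3% of all probe sets tested. The median size of the difference was 0.77 over the 9 genes and 0.10 over all probe sets tested. These comparisons set 1 probe set per gene beside all probe sets tested. The genes were chosen with earlier results of these data known, so the shares describe the list and do not test it. In NeoNull embryos the same 8 genes were called in the same directions, where 10% of 23732 probe sets were called, 5.96% higher and 4.08% lower in nasal tissue, and were again free of overlap, against 29.5% of all. By probe set, 14 of the 21 tested were called in control and 13 of the 22 tested in NeoNull embryos. In these bulk samples fewer cells of a type and less RNA per cell cannot be told apart.

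**Figure D1:**
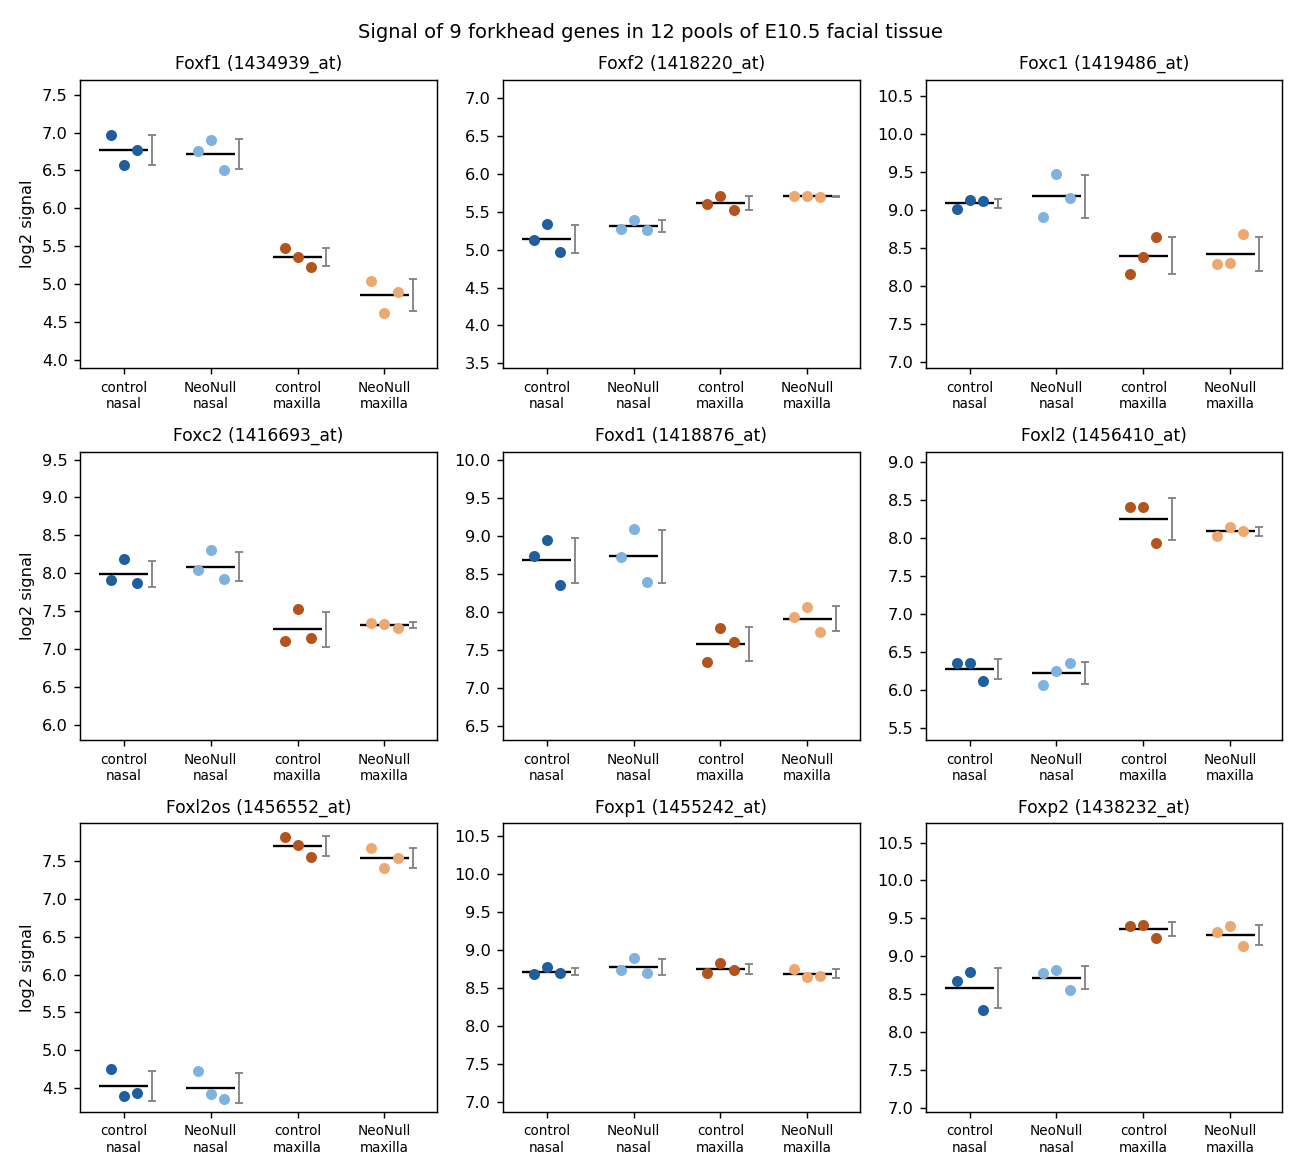
Log2 signal (vertical axis, the same span in each panel) of the 9 genes in the 12 pools, by group. Points are pools in replicate order, black lines are group means and grey bars are ± 1 SD (n = 3). Nasal and maxillary points are apart for 8 genes and overlap for Foxp1, and Foxl2os has the widest gap, from about 4.5 to about 7.6.

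Foxl2os and Foxl2 were both higher in maxillary tissue. Foxl2os differed most of the 9 genes in both genotypes. Foxl2 came next in control embryos, while in NeoNull embryos the Foxl2 and Foxf1 differences were of one size (-1.87 and 1.87). Foxl2os is a noncoding RNA. Its probe set 1456552_at read 4.75, 4.40 and 4.44 in the control nasal pools and 7.82, 7.71 and 7.55 in the control maxillary pools. The NeoNull nasal pools read 4.73, 4.42 and 4.37 and the NeoNull maxillary pools 7.67, 7.40 and 7.54. Every maxillary pool lay above every nasal pool, whatever the genotype. Nasal minus maxillary Foxl2os was -3.16 (SE 0.12, adjusted p = 4.465e-08, limma) in control, a signal 8.96-fold higher in the maxilla (95% confidence interval 7.45 to 10.8). It ranked 8th by p among the probe sets tested. In NeoNull embryos the difference was -3.03 (SE 0.12, adjusted p = 4.415e-08, limma). The size depends on how dim signals are treated: with an offset of 32 added to the linear signals the difference was -2.12, or 4.33-fold, in control and -1.99, or 3.98-fold, in NeoNull embryos, and both calls held.

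Foxl2 encodes the forkhead protein itself. Probe set 1456410_at read 6.35, 6.36 and 6.12 in control nasal, 8.41, 8.41 and 7.93 in control maxillary, 6.06, 6.25 and 6.35 in NeoNull nasal and 8.03, 8.14 and 8.09 in NeoNull maxillary pools. The third control maxillary pool was the lowest of its group and still stood clear of the nasal pools. Nasal minus maxillary Foxl2 was -1.97 (SE 0.13, adjusted p = 2.155e-06, limma) in control, 3.93-fold higher in the maxilla (3.25 to 4.76), and -1.87 (SE 0.13, adjusted p = 2.705e-06, limma) in NeoNull embryos. A second Foxl2 probe set, 1444002_at, was scored variable in control maxilla and absent in the other 3 groups, and was not tested. Its means were 4.01 and 4.44 in control nasal and maxillary tissue.

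Foxf1 had the largest nasal excess of the 9 genes in both genotypes on the deposited scale. With the offset of 32 it was 0.95 in control, where Foxd1 stood at 0.99, and 1.17 in NeoNull embryos, where it was still the largest. Probe set 1434939_at read 6.97, 6.58 and 6.77 in control nasal and 5.48, 5.36 and 5.23 in control maxillary pools. It read 6.75, 6.90 and 6.51 in NeoNull nasal and 5.04, 4.62 and 4.90 in NeoNull maxillary pools. The nasal pools of the genotypes overlapped, while the NeoNull maxillary pools were the lowest of the 12. Nasal minus maxillary Foxf1 was 1.41 (SE 0.13, adjusted p = 4.995e-05, limma), or 2.66-fold (2.18 to 3.26), in control and 1.87 (SE 0.13, adjusted p = 4.424e-06, limma), or 3.65-fold (2.98 to 4.47), in NeoNull embryos. The other Foxf1 probe set, 1423013_at, was brighter but scored absent in all 4 groups and was not tested. Its nasal pools also lay above its maxillary pools, by 0.42 in control and 0.37 in NeoNull embryos, a smaller difference than that of 1434939_at.

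Foxf2, the closest relative of Foxf1, whose loss in the mouse leaves a cleft palate, was lower in nasal tissue. Probe set 1418220_at read 5.12, 5.34 and 4.97 in control nasal and 5.60, 5.70 and 5.52 in control maxillary pools. The NeoNull values were 5.27, 5.40 and 5.26 in nasal and 5.71, 5.71 and 5.70 in maxillary pools. The gap was narrow, as the highest nasal and the lowest maxillary pool, at 5.40 and 5.52, nearly met. Nasal minus maxillary Foxf2 was -0.46 (SE 0.09, adjusted p = 0.005997, limma) in control, 1.38-fold higher in the maxilla (1.21 to 1.58), and -0.39 (SE 0.09, adjusted p = 0.01386, limma) in NeoNull embryos. With the offset of 32 the differences were -0.26 and -0.23, and both calls held. The second Foxf2 probe set, 1447562_at, was scored absent in every group, at means between 3.01 and 3.07.

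Foxd1, Foxc2 and Foxc1 were higher in nasal tissue by smaller amounts. Foxd1 probe set 1418876_at read 8.75, 8.95 and 8.36 in control nasal, 7.35, 7.79 and 7.61 in control maxillary, 8.72, 9.09 and 8.40 in NeoNull nasal and 7.93, 8.07 and 7.74 in NeoNull maxillary pools. Its nasal pools spread widely, with the second pool highest and the third lowest in both genotypes. Nasal minus maxillary Foxd1 was 1.11 (SE 0.19, adjusted p = 0.003232, limma), or 2.15-fold (1.62 to 2.86), in control and 0.82 (SE 0.19, adjusted p = 0.01609, limma) in NeoNull embryos.

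Foxc2, required for vessels, lymphatics and the axial skeleton, is measured by 1 probe set, 1416693_at. It read 7.91, 8.19 and 7.88 in control nasal, 7.11, 7.53 and 7.15 in control maxillary, 8.04, 8.30 and 7.92 in NeoNull nasal and 7.35, 7.34 and 7.28 in NeoNull maxillary pools. All nasal pools were above all maxillary pools. The difference was 0.73 (SE 0.13, adjusted p = 0.003881, limma), or 1.66-fold (1.37 to 2.02), in control and 0.77 (SE 0.13, adjusted p = 0.00243, limma) in NeoNull embryos.

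Foxc1, the close relative of Foxc2, has 2 probe sets. The brighter, 1419486_at, read 9.02, 9.13 and 9.12 in control nasal, 8.16, 8.39 and 8.65 in control maxillary, 8.91, 9.48 and 9.16 in NeoNull nasal and 8.30, 8.30 and 8.69 in NeoNull maxillary pools. The third maxillary pool was the highest of its group in both genotypes and came near the lowest nasal pool. The difference was 0.69 (SE 0.16, adjusted p = 0.01868, limma), or 1.61-fold (1.27 to 2.05), in control and 0.75 (SE 0.16, adjusted p = 0.009904, limma) in NeoNull embryos. The second Foxc1 probe set, 1419485_at, differed by 0.64 and 0.71 (adjusted p = 0.03422 and 0.01743, limma). The control call of 1419486_at was lost without control nasal pool 2 or 3 or control maxillary pool 1 or 2, with adjusted p between 0.05665 and 0.07589 (limma) and differences of 0.57 to 0.69.

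Foxp2, the repressor known from speech development in humans, was lower in nasal tissue, and all 6 of its probe sets leaned that way. The brightest, 1438232_at, read 8.67, 8.79 and 8.29 in control nasal, 9.40, 9.42 and 9.25 in control maxillary, 8.79, 8.82 and 8.55 in NeoNull nasal and 9.32, 9.39 and 9.13 in NeoNull maxillary pools. No pool of one prominence overlapped the other. The difference was -0.77 (SE 0.12, adjusted p = 0.002295, limma) in control, 1.71-fold higher in the maxilla (1.41 to 2.06), and -0.56 (SE 0.12, adjusted p = 0.01408, limma) in NeoNull embryos. Over the 6 Foxp2 probe sets the control differences ran from -0.81 to -0.34, and all 6 were called. In NeoNull embryos they ran from -0.69 to -0.42, and 5 were called, the exception being 1438231_at (-0.48, adjusted p = 0.09407, limma). The 6 probe sets share the gene and the RNA and are not replicates. The NeoNull calls of Foxp2 and Foxd1 were each lost without either of 2 pools. For Foxp2 these were NeoNull nasal pool 3 (adjusted p = 0.05621) and maxillary pool 2 (0.05946), and for Foxd1 NeoNull nasal pool 2 (0.05868) and maxillary pool 3 (0.06547).

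Foxp1, the paralogue and binding partner of Foxp2, gave no call between prominences. Its brightest probe set, 1455242_at, read 8.68, 8.78 and 8.70 in control nasal, 8.70, 8.83 and 8.74 in control maxillary, 8.73, 8.90 and 8.70 in NeoNull nasal and 8.76, 8.65 and 8.66 in NeoNull maxillary pools, with full overlap. The control difference was -0.04, and its 95% confidence interval of -0.18 to 0.11 leaves room for a change of up to 1.13-fold in favour of the maxilla. None of the 7 Foxp1 probe sets tested in control was called, with differences from -0.12 to 0.11. None of the 8 tested in NeoNull embryos was called either, where the widest was 0.27 for 1421141_a_at (adjusted p = 0.1378, limma). In NeoNull embryos the nasal pools of 1421141_a_at and of 1443258_at lay above their maxillary pools, where 29.5% of all probe sets tested were free of overlap. Probe set 1443258_at entered the NeoNull contrast through its present score in NeoNull nasal tissue alone. In control it was not tested and leaned the other way (-0.13).

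**Figure D2:**
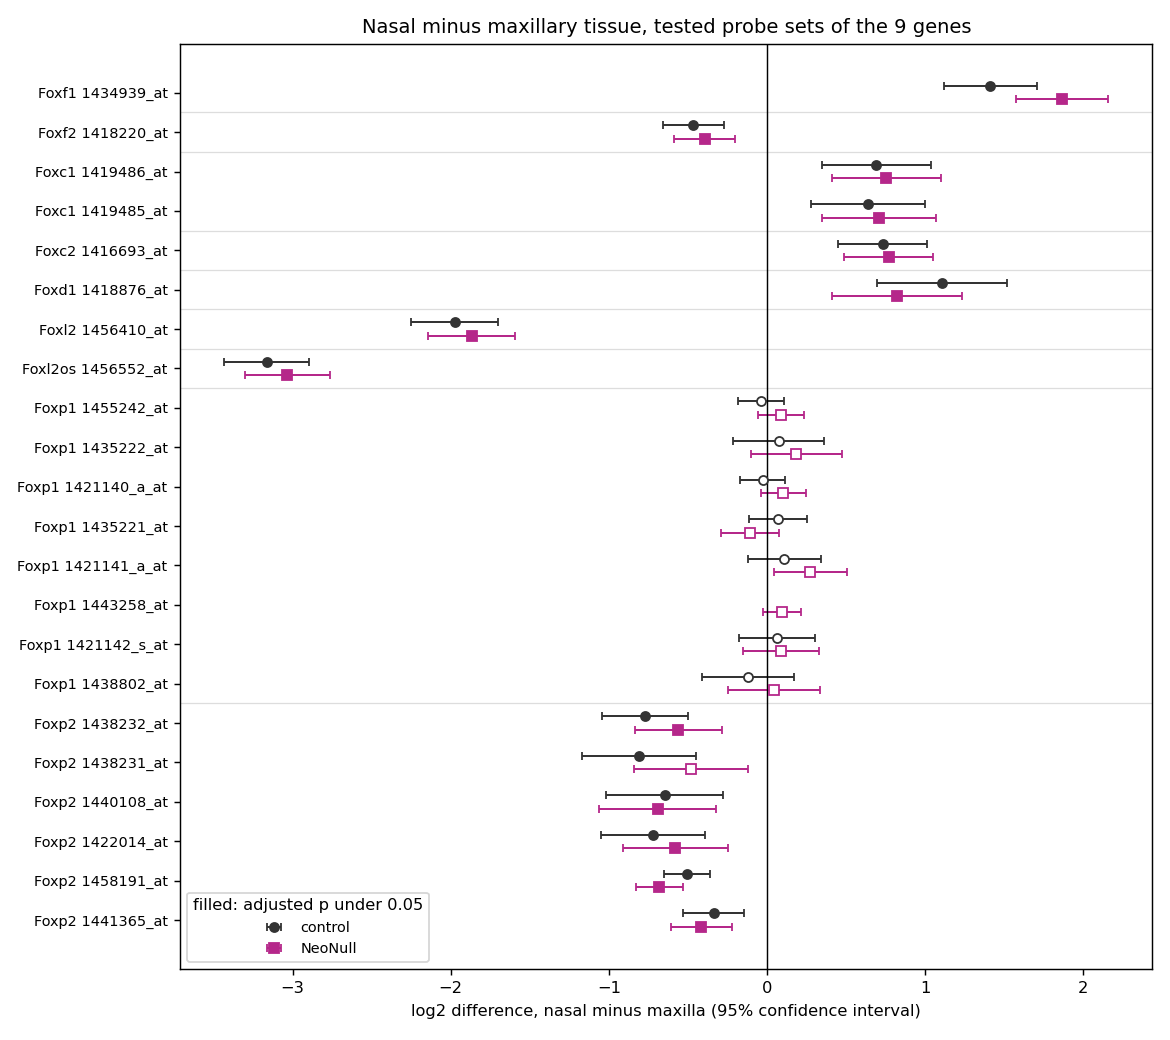
Difference in log2 signal between nasal and maxillary tissue (horizontal axis) for each tested probe set of the 9 genes, with 95% confidence intervals, in control (circles) and NeoNull (squares) embryos. Filled symbols are called at an adjusted p under 0.05, and the differences of the brightest probe sets run from -3.16 (control) and -3.03 (NeoNull) for Foxl2os to 1.41 and 1.87 for Foxf1.

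The cell type markers of the same pools also differed between prominences. All 8 crest mesenchyme markers (Prrx1, Prrx2, Twist1, Twist2, Pdgfra, Msx1, Snai2 and Col3a1) were scored present in every group, so that RNA of such cells was in every pool, but bulk values do not show which cells made the 9 RNAs. Their mean log2 level was 0.64 lower in nasal than in maxillary control tissue, from 9.67 to 9.94 against 10.3 to 10.6, and 5 of the 8 were called lower. The 6 tested markers of rostral neuroepithelium (Six3, Lhx2, Emx2, Hesx1, Sox2 and Pax6) were the other way, with 4 called higher in nasal control tissue and 6 in NeoNull. Six3 and Pax6 were scored present in no maxillary group, Lhx2 was not in control maxilla, and Rax was in no group at all. Six3 and Pax6 in both genotypes, and Lhx2 in control, thus entered the test through nasal tissue alone. Endothelial markers were lower in nasal tissue, with 5 of 8 called in each genotype. In control tissue the other lists had 2 of 9 called higher and 1 lower (surface ectoderm), 2 of 7 lower (new neurons), 1 of 4 higher and 2 lower (head muscle mesoderm), 1 of 4 lower (macrophage) and 0 of 4 (primitive blood). The 1 head muscle marker called higher was Lhx2, which is also in the rostral neuroepithelium list. The others tested, Myf5, Msc and Tcf21, were scored present in no nasal group and entered through the maxilla alone. No marker of any list was called between genotypes. All 4 tested macrophage markers were lower in nasal tissue in each genotype, with 1 called in control and 3 in NeoNull embryos. Fcer1g of this list and Tie1 of the endothelial list were not scored present in control nasal tissue. Both thus entered the control test through the maxilla alone, the side where they are high. By mean level in both genotypes, Foxf1, Foxc1, Foxc2 and Foxd1 ran against the crest mesenchyme, endothelial, macrophage, head muscle and new neuron lists. They ran with the rostral neuroepithelium, surface ectoderm and primitive blood lists. Foxf2, Foxl2, Foxl2os and Foxp2 ran the opposite way to each list. The surface ectoderm mean was 0.15 higher in control and 0.21 higher in NeoNull nasal tissue. In control tissue the pools of new neurons and of primitive blood overlapped between prominences. The part of tissue makeup in the differences of the 9 genes was not tested.

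**Figure D3:**
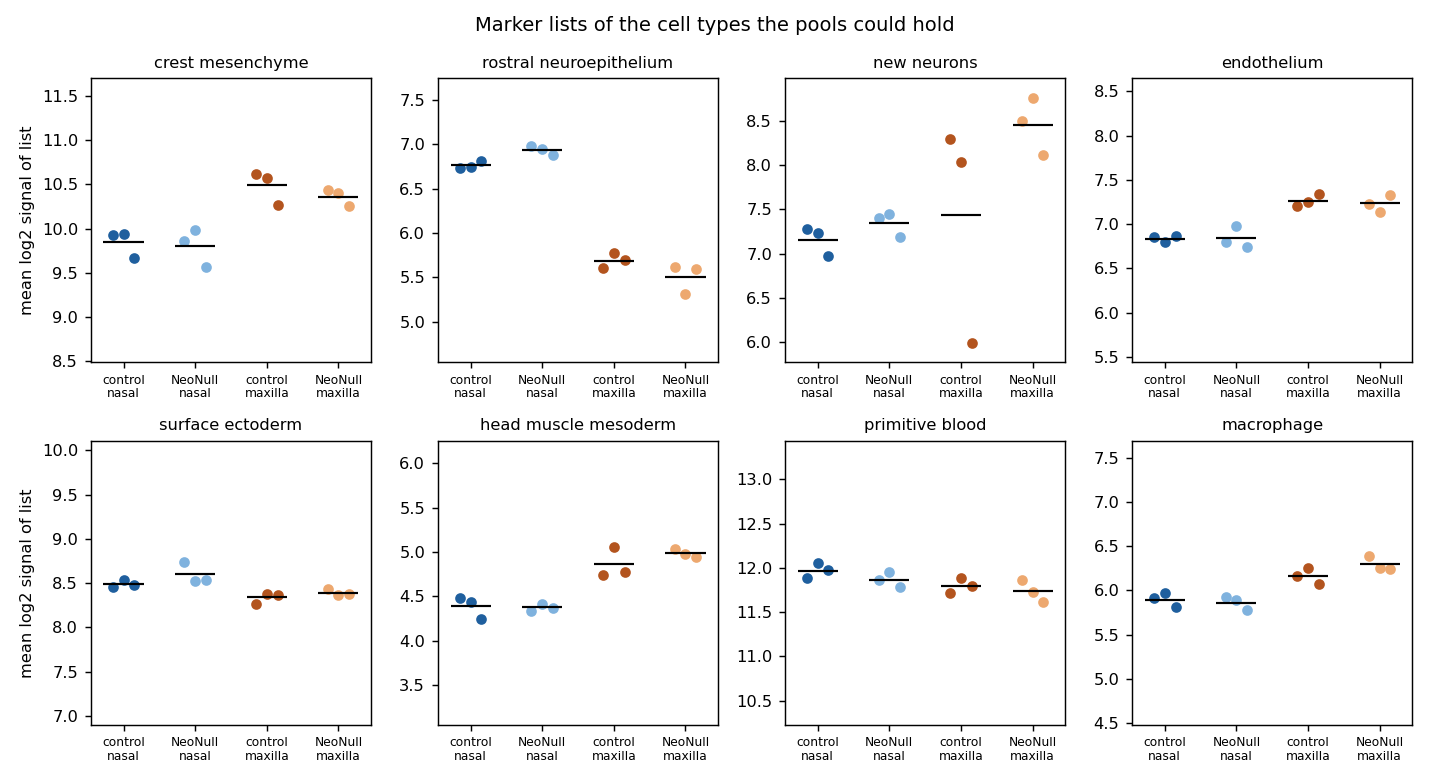
Mean log2 signal (vertical axis, the same span in each panel) of the marker genes of 8 cell types in the 12 pools, by group. Points are pools and black lines are group means (n = 3). Crest mesenchyme, endothelium, head muscle mesoderm and macrophage are lower in nasal than in maxillary pools. Rostral neuroepithelium is higher, surface ectoderm is higher by a small amount, and new neurons span 5.996 to 8.30 in control maxilla.

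The comparison of genotypes asked whether lower AP-2α activity changed these genes within a prominence. No member was called. In nasal tissue 0 of the 21 probe sets tested passed (limma, adjusted p of 0.9995 for each), where 0.00474% of all 21088 tested were called, and 0 had an unadjusted p under 0.05, where 4.52% of all did. None of the 21 was free of overlap between the genotypes, against 8.19% of all. In maxillary tissue 0 of 21 passed (lowest adjusted p = 0.7698, limma), where 0% of 21213 were called. There 2 had an unadjusted p under 0.05, against 6.04% of all, and 3 were free of overlap, against 11.6% of all. The median NeoNull minus control difference over the 9 genes was 0.06 in nasal and -0.07 in maxillary tissue, against 0.03 and -0.0048 over all probe sets tested.

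Foxf1 in the maxilla stood farthest from 0. Its 3 NeoNull maxillary pools (4.62 to 5.04) lay below the 3 control pools (5.23 to 5.48), by 0.50 (SE 0.13, 95% confidence interval of NeoNull minus control -0.79 to -0.21). This had an unadjusted p of 0.002888 and an adjusted p of 0.7698 (limma), and did not pass. Over the alternatives the difference lay between -0.59 and -0.26 (the latter with the offset of 32), with adjusted p from 0.1862 to 0.9999. In nasal tissue Foxf1 differed by -0.05 (-0.34 to 0.24). The genotype difference in nasal minus that in maxillary tissue was 0.45 (SE 0.19, 95% confidence interval 0.04 to 0.87, unadjusted p = 0.03456, adjusted p = 0.9844, limma) and 0.22 with the offset, and no member passed this test of the difference, where 0% of 22148 probe sets did. The second Foxf1 probe set, scored absent, overlapped between genotypes, at -0.15 in maxilla and -0.20 in nasal tissue. Beside this, the crest mesenchyme list was 0.12 and the endothelial list 0.03 lower in NeoNull than in control maxilla, and the list of new neurons was 1.02 higher, with control maxillary pool 3 at 5.996 and the other control pools up to 8.30. Their part in the Foxf1 values was not tested.

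For the other genes the genotypes overlapped in the brightest probe set in both prominences. Foxd1 was 0.33 higher in NeoNull maxilla (95% confidence interval -0.08 to 0.75, adjusted p = 0.865, limma). Foxl2 and Foxl2os differed by -0.16 in maxilla (intervals -0.44 to 0.11 and -0.42 to 0.11) and by -0.06 and -0.02 in nasal tissue. Foxf2 differed by 0.17 in nasal tissue (-0.02 to 0.36) and 0.10 in maxilla. Foxc1, Foxc2, Foxp1 and Foxp2 lay between -0.07 and 0.14 in both prominences. The other probe set with an unadjusted p under 0.05 was Foxp2 1458191_at in maxilla (0.17, adjusted p = 0.8177, limma), while the brightest Foxp2 probe set stood at -0.07 there. With 3 pools a group the intervals in nasal tissue still reach from 0.20 (Foxp1) to 0.46 (Foxd1) above 0 among the 9 genes, and down to -0.36 (Foxd1). In maxilla they reach 0.75 (Foxd1), or 1.68-fold, and -0.79 (Foxf1). Differences within these limits could have gone undetected.

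**Figure D4:**
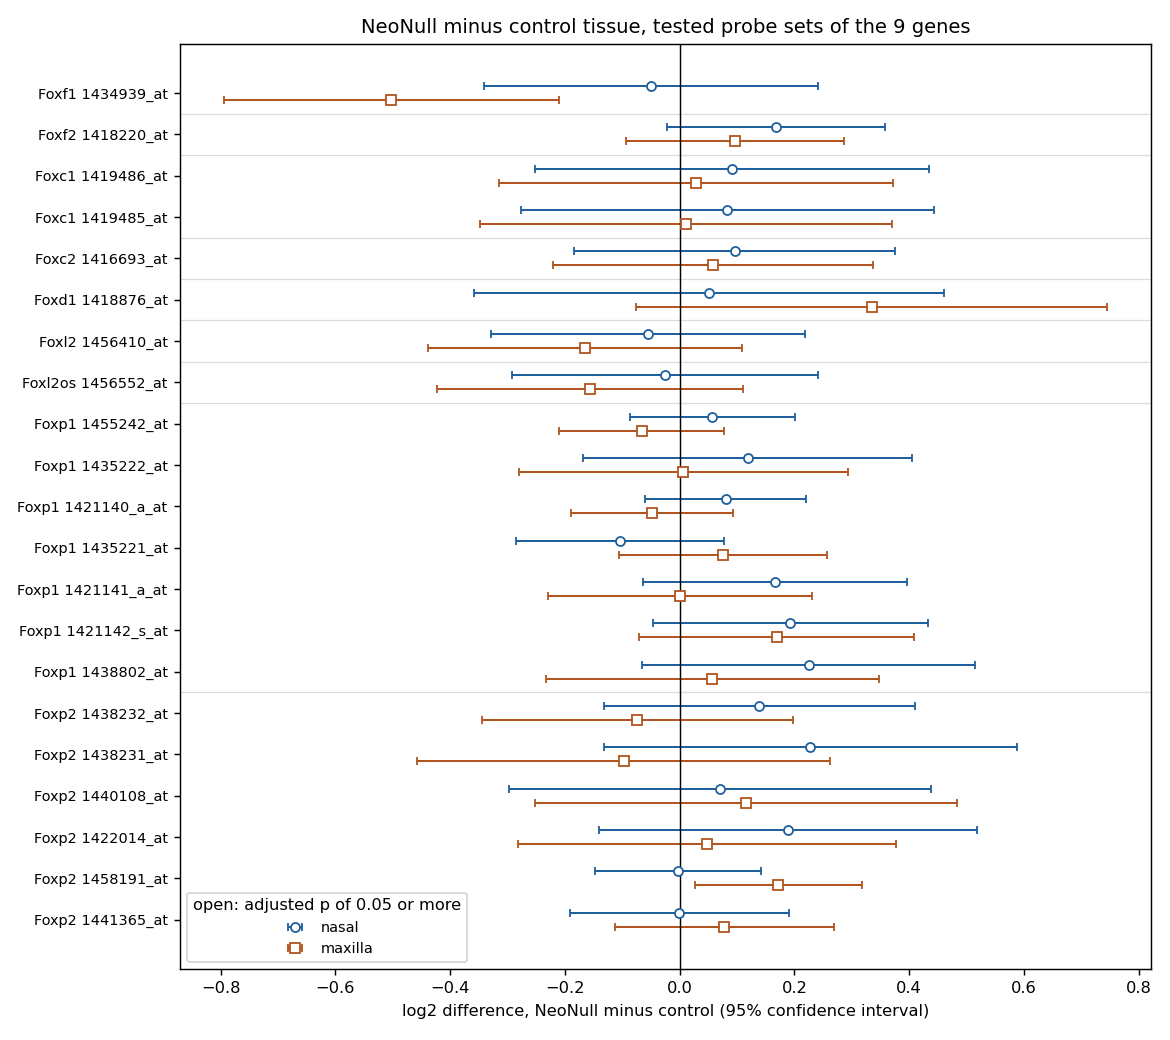
Difference in log2 signal between NeoNull and control tissue (horizontal axis) for the 21 tested probe sets of the 9 genes, with 95% confidence intervals, in nasal (circles) and maxillary (squares) tissue. All symbols are open, since none had an adjusted p under 0.05, and the intervals of Foxf1 (-0.79 to -0.21) and Foxp2 1458191_at (0.03 to 0.32) in maxilla do not reach 0.

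Across the 12 pools the genes fell into sets that mostly repeat the split between prominences. Pearson's r over the 12 pools was 0.99 for Foxl2 with Foxl2os, 0.96 for Foxc2 with Foxd1, 0.94 for Foxf2 with Foxp2 and -0.89 for Foxf1 with Foxf2. These values rest on 2 clusters of pools and are descriptions. Taken as deviations of each pool from its own group mean, Foxl2 and Foxl2os gave 0.08 and Foxf1 and Foxf2 -0.05, while Foxc2 with Foxd1 kept 0.84. Foxf2 with Foxc2 (0.81) and with Foxp2 (0.81), and Foxc2 with Foxp1 (0.87), also deviated together within groups, although Foxf2 and Foxc2 differ between prominences in opposite directions. In both genotypes nasal pool 2 was the highest of its group for 7 of the 9 genes, where it was the highest for 30.3% (NeoNull) and 31.9% (control) of all probe sets scored present. In control maxilla pool 2 was the highest for 6 of the 9 genes, against 33.7% of all. In NeoNull maxilla pools 1 and 2 were each the highest for 4, against 33.1% and 22.9% of all. Of the 72 correlations between deviations of a member and of a marker list, 7 were at least 0.7 in size. These were Foxp2 with crest mesenchyme (0.862) and macrophage (0.745), Foxp1 with primitive blood (0.841), Foxc2 with primitive blood (0.754) and head muscle mesoderm (0.726), Foxc1 with endothelium (0.808) and Foxl2 with new neurons (0.795). Control maxillary pool 3 was the lowest of its group in both Foxl2 and the new neuron list, and without it the last value was 0.182 over 11 pools. In both nasal groups only 1 of the 6 genes of the head muscle list on the array, Lhx2, was scored present, so the list's nasal values are mostly of genes not scored present. The part of these cell types was not tested.

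**Figure D5:**
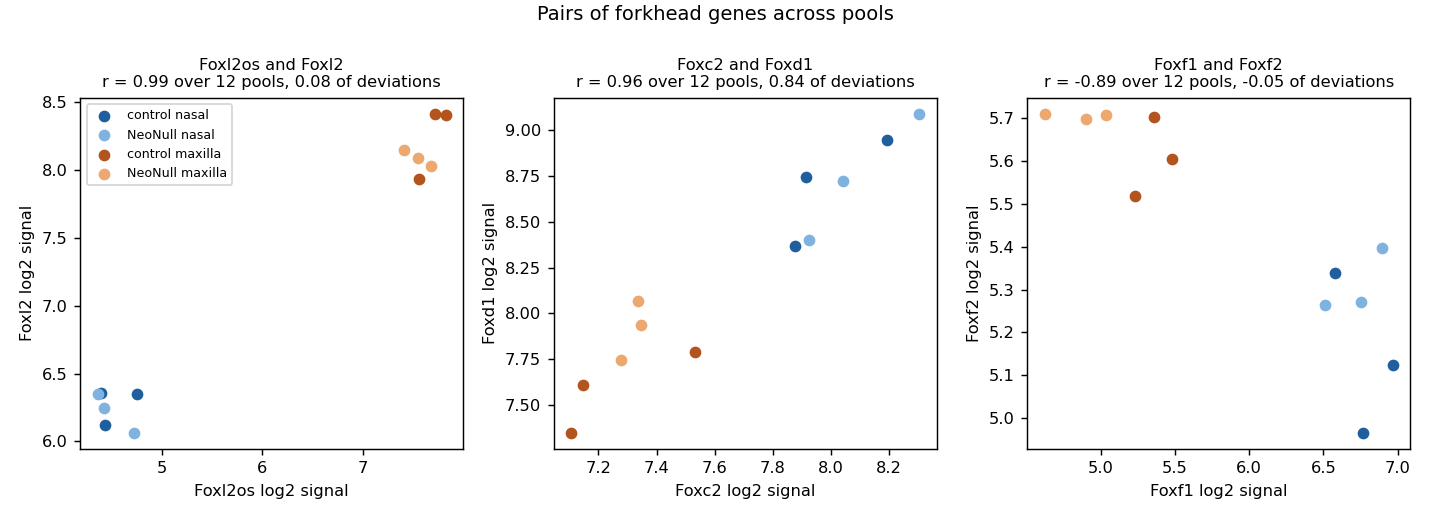
Log2 signals of pairs of genes in the 12 pools, one point a pool, coloured by group. Foxl2os and Foxl2 form a nasal and a maxillary cluster with little relation inside them (0.99 over all pools, 0.08 of deviations from group means), Foxc2 and Foxd1 vary together inside the clusters too (0.84), and Foxf1 and Foxf2 have opposite clusters (-0.89 over all pools, -0.05 of deviations).

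Among 11380 genes, those with the pattern most like each member were found by Pearson's r over the 12 pools. For members that differ between prominences, a high r can rest on the nasal and maxillary clusters alone. Foxl2 with Foxl2os, for example, had 0.99 over the pools and 0.08 for deviations from group means. Deviations were not taken for the genes named here, and the rankings are descriptions. Barx1, a homeobox gene of proximal facial mesenchyme, was first for both Foxl2 (r = 0.995) and Foxl2os (0.996). It was followed for Foxl2 by Lhx6 (0.994), a LIM homeobox gene of oral mesenchyme, and Capn6, and for Foxl2os by Mab21l1 (0.995) and Lrba. Foxf1 was most like Crabp1 (0.985), which binds retinoic acid, the Hedgehog co-receptor Cdon (0.984) and Inmt. Foxf2 was most like Dclk1 (0.970), the collagen chaperone gene Serpinh1 and Afap1l2, and Foxp2 most like Pou3f3 (0.981), a POU-domain transcription factor gene, Cdkn1c and Vegfd. Foxd1 was most like Runx1t1 (0.969), a corepressor gene, then Foxc2 (0.961) and Rnf182. Foxc2 was most like Prnp (0.979), Adamts3 and Camk2n1, and Foxc1 most like Entpd5 (0.952), Rhoj and Cxadr. Foxp1 had the weakest nearest genes, Med13l (0.893), Hspb6 and Adam19.

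Of the 13 listed genes of the Hedgehog pathway, which acts upstream of Foxf1 and Foxf2, 12 were tested between prominences. The co-receptor genes Boc and Cdon and the effector Gli2 were called higher in nasal tissue in both genotypes, and the ligand Shh and Disp1, which releases the ligand, were called lower. In control tissue the differences were 0.66 for Boc, 0.52 for Cdon, 0.21 for Gli2, -0.48 for Shh and -0.90 for Disp1 (adjusted p from 8.314e-05 to 0.03584, limma). The targets Gli1, Ptch1 and Hhip, read-outs of the pathway, were not called (-0.12, 0.04 and 0.03 in control). Thus 3 of 12 were called higher and 2 lower, and the list's median was 0.02 against -0.01 over all genes. Between genotypes 0 were called in either prominence, and 1 gene in each had an unadjusted p under 0.05, Boc in nasal tissue (-0.24, adjusted p = 0.9995, limma) and Cdon in maxilla (-0.28, adjusted p = 0.5741, limma). In maxilla 4 of the 11 tested stood above 0, among them Boc at 0.08, Ptch1 at 0.08 and Shh at 0.09. Besides Cdon, the 7 below 0 included Gli1 at -0.21, Smo at -0.18 and Gas1 at -0.15.

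Of the 29 other forkhead genes on the array, 14 were tested between prominences in control embryos and 13 in NeoNull. Foxd2, a relative of Foxd1, was called in both, higher in nasal tissue by 0.78 (adjusted p = 0.0003116, limma) and 0.88 (0.0001086). Foxm1, a gene of dividing cells, was called in NeoNull embryos by 1 of its 3 probe sets (0.42, adjusted p = 0.01364, limma) and stood at -0.01 in control by the same probe set. None of them was called between genotypes.

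Of the 13 protein-coding genes that lie next to a member and are not members, 7 were tested, and 1 was called in each genotype. Foxf1 and Foxc2 lie on chromosome 8 with Mthfsd, a gene of folate metabolism, between them. Both forkhead genes were higher in nasal tissue, while Mthfsd differed by 0.08 in control (adjusted p = 0.6259, limma) and Irf8, on the other side of Foxf1, by -0.12 (0.6304). Foxc1 is followed on chromosome 13 by Gmds, which was called higher in NeoNull nasal tissue (0.51, adjusted p = 0.002155) and stood at 0.29 in control (0.05521). Mdfic, next to Foxp2 on chromosome 6, was called lower in control nasal tissue (-0.45, adjusted p = 0.02283) and stood at -0.34 in NeoNull (0.06632). Faim beside Foxl2, Btf3 beside Foxd1 and Eif4e3 beside Foxp1 were not called (-0.04, 0.02 and 0.15 in control).

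The 12 arrays were alike in scale, with medians of 5.13 to 5.19 and correlations of 0.996 to 0.998 between arrays of a group. Tfap2a, the altered gene, was scored present in every group, and its 3 probe sets differed between genotypes by -0.15 to 0.13 with no call. Where those probe sets lie relative to the cassette and the null allele is not given in the sources used here, so they do not test the labels.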

How the data were processed

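Total RNA of pooled E10.5 nasal and maxillary prominences was hybridised to Affymetrix Mouse430 2.0 arrays, 1 array a pool. Each deposited value is the log2 signal of a probe set. The authors used the GeneChip Operating Software with 1 scaling factor per array, and a file header names MAS signals. The log step and the probe summary are not given in the sources used here. The authors also deposited a detection score, given once per group (1 present, -1 absent, 0 variable), and how they combined the 3 arrays of a group is not stated. 64 control probe sets were left out. By annotation, 34945 probe sets had 1 symbol, 932 had more and 9160 had none.

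Group means were estimated from all 12 arrays in a linear model (limma 3.58.1, R 4.3.3, lmFit and eBayes, 8 residual degrees of freedom). Contrasts between prominences used probe sets present in at least 1 group, those between genotypes probe sets present in both. The number of arrays limits the precision, and p-values measure the spread between pools. Every member's probe sets were named. Marker lists, Hedgehog genes, other forkhead genes and chromosomal neighbours gave context, and the members and lists were chosen with earlier results of these data known. The use of Foxf1's brightest present probe set was settled after its values were seen. Scripts were tested on simulated data.

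Groups share replicate numbers in the labels. Same-numbered pools deviated together between prominences (r from 0.194 to 0.271 in control and from 0.159 to 0.231 in NeoNull) and between maxillary genotypes (0.152 to 0.47), but not between nasal genotypes (-0.182 to 0.169). Pools of different number gave -0.21 to 0.0566, -0.162 to -0.0336, -0.336 to 0.246 and -0.26 to 0.169 in the same order, so only between prominences did every same-numbered pair exceed every other pair. Between maxillary genotypes pools 1 and 2 correlated as much across numbers, and the labels do not say what a number marks. Alternatives were another scaling, an offset of 32 on linear signals, other filters, array weights, a variance trend, only the arrays compared, gene means, the replicate block and leaving out each pool. Promoter sequences and gene order came from RefSeq tables of GRCm38.p6, and figures were drawn with matplotlib 3.10.9.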

Additional observations from a re-analysis of the deposited data

How the results depend on the processing

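The counts of called genes were 8 between prominences in each genotype and 0 between genotypes, and stayed within 7 to 8 and at 0 under all alternatives run. Without 1 pool at a time they were 7 to 8 (both prominence contrasts) and 0. With the replicate block the counts were 8, 8 and 0, Foxf1 in maxilla had an adjusted p of 0.4072, and the block changed no call of a member. The spread estimated over all probe sets, and Foxl2 with new neurons without 1 pool, were chosen after seeing the data. The offset of 32 reduced 4 called log2 differences by over 1.5 times (Foxf2 in both genotypes, Foxf1 and Foxl2os in NeoNull embryos), with no call changed. The number of arrays limits the precision. The single-gene calls lost without 1 pool are those of Foxc1 in control and of Foxd1 and Foxp2 in NeoNull embryos, given above.

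Differences that were never called and lay near 0 changed sign. By the mean of a gene's probe sets, Foxp1 was 0.0193 between prominences in control and 0.0277 between maxillary genotypes, and Foxp2 was 0.0399 between maxillary genotypes. With quantile normalization Foxl2os was 0.0021 between nasal genotypes and the Foxc2 genotype difference between prominences was -0.0078. With array weights Foxf1 was 0.0514 between nasal genotypes. Without 1 pool, Foxp1 between prominences in control ranged from -0.0659 to 1e-04. Between nasal genotypes the ranges were -0.15 to 0.055 for Foxf1, -0.0568 to 0.23 for Foxc1, -0.0112 to 0.19 for Foxc2, -0.13 to 0.22 for Foxd1, -0.13 to 0.0226 for Foxl2, -0.14 to 0.0864 for Foxl2os, -0.0036 to 0.10 for Foxp1 and -0.0078 to 0.24 for Foxp2. Between maxillary genotypes they were -0.10 to 0.15 for Foxc1 and -0.02 to 0.19 for Foxc2. The genotype difference in nasal minus that in maxillary tissue ranged from -0.0854 to 0.20 for Foxc1, from -0.10 to 0.14 for Foxc2 and from -0.0175 to 0.17 for Foxf2. The cause was not tested.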
